A study of Rattus norvegicus with 8 samples.

Results

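Glycolysis and hypoxia-response genes were chosen as a list of 36 rat genes that take up glucose, split it to pyruvate, direct that pyruvate, or are induced when oxygen runs short. A probe was matched to each gene by RefSeq accession, and 35 of the 36 were measured among 12148 genes in all. Egln1, a prolyl hydroxylase that senses oxygen, had no matched probe, so its level was not analysed here. The list was drawn up with earlier results of these data known, so its counts are descriptions. The RNA came from Wistar rats 0 to 5 days old, with cells of both sexes pooled. Their dorsal root ganglia, which hold the cell bodies of sensory neurons, had been dissociated and plated. After 2 to 3 days in vitro, these cultures were kept for 5 days with 100 ng/ml of a human protein, in the form of the P61S/R100E double mutant (3 arrays), the P61S single mutant (3 arrays) or the wild type (2 arrays). All groups shared a serum-free medium with N2 supplement and with 5-fluoro-2′-deoxyuridine and uridine, which hold back dividing cells, and cultures that had received no protein were not analysed here. The labels do not say whether replicates were separate cultures or animals, so p-values measure only the spread between these samples, which may be technical. The cultures are a model of newborn ganglia outside the body, at the oxygen of the culture vessel, which the labels do not give.

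Glycolysis turns glucose into pyruvate, which is reduced to lactate in the cytosol or passed to the mitochondria, and lactate leaves through monocarboxylate transporters. When oxygen is plentiful, prolyl hydroxylases mark the alpha subunits of hypoxia-inducible factor (HIF) for destruction. When it is scarce, HIF accumulates with its partner ARNT, binds short DNA motifs and raises the transcripts of most glycolytic enzymes and of genes for vessel growth, acid balance and mitochondrial turnover. In nervous tissue, glia are often described as the more glycolytic cells and neurons as users of their lactate. The RNA here mixed neurons and non-neuronal cells, so fewer cells of a type and less RNA per cell cannot be told apart.

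HIF binds DNA at sites with the core ACGTG, or its variant that starts with G in place of A (GCGTG). The promoters of the members with the widest differences between P61S/R100E and P61S cultures are shown because 5 of those 6 genes had their highest level on the same array. Each sequence is the 250 bases before the gene's start from the RefSeq table of build GRCr8, 5′ to 3′ on the strand of the gene, and capitals mark either form of the core on either strand. Slc2a3 belongs to the same set and is named only.
Adm, chr1:174179950-174180199, plus strand: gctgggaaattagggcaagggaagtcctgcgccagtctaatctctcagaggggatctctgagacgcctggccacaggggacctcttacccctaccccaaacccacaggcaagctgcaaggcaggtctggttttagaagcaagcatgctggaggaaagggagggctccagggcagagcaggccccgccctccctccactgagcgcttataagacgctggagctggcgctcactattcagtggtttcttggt
Slc16a3, chr10:106712078-106712327, plus strand: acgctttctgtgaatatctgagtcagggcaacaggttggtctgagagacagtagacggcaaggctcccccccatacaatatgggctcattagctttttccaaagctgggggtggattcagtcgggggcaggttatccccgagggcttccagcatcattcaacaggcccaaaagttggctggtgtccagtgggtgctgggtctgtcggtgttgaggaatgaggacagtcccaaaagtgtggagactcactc
Ankrd37, chr16:53001257-53001506, plus strand: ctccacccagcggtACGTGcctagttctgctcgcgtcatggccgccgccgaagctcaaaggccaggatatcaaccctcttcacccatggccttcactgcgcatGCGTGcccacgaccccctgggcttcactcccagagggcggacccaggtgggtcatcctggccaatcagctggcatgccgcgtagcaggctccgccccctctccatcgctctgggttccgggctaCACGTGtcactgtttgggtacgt
Pdk1, chr3:77113264-77113513, plus strand: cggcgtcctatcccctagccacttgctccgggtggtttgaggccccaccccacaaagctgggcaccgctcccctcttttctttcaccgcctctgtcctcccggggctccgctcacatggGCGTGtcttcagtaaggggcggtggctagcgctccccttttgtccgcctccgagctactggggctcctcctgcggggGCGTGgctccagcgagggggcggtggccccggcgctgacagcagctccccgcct
Bnip3, chr1:203154963-203155212, minus strand: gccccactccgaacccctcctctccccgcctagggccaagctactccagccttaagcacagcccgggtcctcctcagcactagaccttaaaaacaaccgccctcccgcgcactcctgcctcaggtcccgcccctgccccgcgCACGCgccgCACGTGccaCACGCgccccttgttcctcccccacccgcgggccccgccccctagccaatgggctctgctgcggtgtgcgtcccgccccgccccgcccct
Over these 250 bases and the 50 that follow, the core was found 5 times in Ankrd37, 4 times in Bnip3 and 4 times in Pdk1. It was found 0 times in Adm and in Slc16a3. The palindrome CACGTG, which holds the core on both strands and counts for both, was in the windows of Ankrd37 and Bnip3. So the set held promoters with and without the core. Of 32 members with a promoter in the table, 22 (68.8%) had at least 1 match in the 300 bases, against 42.9% of all 27457 promoters and 58.3% of those of tested genes. The 32 include Egln1, which was not measured and had 2 matches. The core contains a CpG, and the median promoter held 20 CpG for members, 19 for tested genes and 7 for all promoters. Among tested genes with a CpG count within the middle range of the members' promoters (11 to 28.25), 66.4% had a match. At least 2 matches were found in 50% of members' promoters, against 35.2% of those CpG-matched promoters and 30.3% of all promoters of tested genes. A match is a string of letters in this window and no more.

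Of the 62976 spots on each array, 78.7% to 88.8% were well above background and 0 were saturated. The 75th percentile signals lay between 3267 and 5269, and the levels below are log2 signals relative to that percentile. All 35 measured members were above background on all 8 arrays. P61S replicates 1 and 3 were nearly the same array. Over 3365 probes with a pair of bright spots, their difference had an SD of 0.0717 (log2), where the scatter between spots alone gives 0.0637, and all other pairs of arrays differed by an SD of 0.124 to 0.309. Their mean was therefore counted as 1 sample, which left 7 samples: 3 of P61S/R100E, 2 of P61S and 2 of wild type. P61S replicate 2 thus had as much weight in the P61S mean as replicates 1 and 3 together. Wild type replicate 2 also stood apart. Its spots of a probe scattered by an SD of 0.160, against 0.0581 to 0.0673 on the other 7 arrays, and it held the highest level of the 8 arrays for 33.3% of all genes. The defining markers of sensory neurons (Tubb3, Prph, Scn10a), Schwann cells and satellite glia (Sox10, Apoe) and fibroblasts (Col1a1, Dcn) were above background on all 8 arrays.

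The first question was whether adding R100E to P61S shifted these genes. No member passed an adjusted p of 0.05 in the limma fit between P61S/R100E and P61S cultures, and neither did any of the 23585 probes tested (0%). At an unadjusted p under 0.05 stood 582 probes (2.47%). The members nonetheless leaned one way, with 31 of 35 lower in P61S/R100E cultures, against 55.6% of all genes. Their median difference was -0.18, against -0.018 over all genes. With all 8 arrays as separate samples the members' median was -0.11. Samples of both groups did not overlap, with P61S/R100E lower, for 6 members (Slc2a3, Pkm, Ldhb, Pdk1, P4ha2 and Car9), against 11.1% of all genes. The opposite separation was found for 0 members, against 8.32% of all genes. Without P61S replicate 2, the members' median was -0.038, against 0.0072 over all genes. Markers of some other cell types were shifted in the same comparison, and 0 of them passed the adjusted threshold. All 8 fibroblast markers were higher in P61S/R100E than in P61S cultures, by a median of 0.11, as were all 3 measured cell cycle markers, by a median of 0.16. Of the 7 endothelial and mural markers, 5 were lower, with a median of -0.16. The 9 neuronal markers, with 5 lower, the 9 glial markers, with 5 lower, and the 8 macrophage markers, with 4 lower, had medians of -0.027, -0.0099 and 0.0063. Their ranges were -0.46 to 0.33, -0.34 to 0.21 and -0.36 to 0.25. Of the neuronal markers 1, Tubb3, was higher at an unadjusted p under 0.05, against 1.01% of all genes. The part of all these markers in the members' lean was not tested.

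**Figure D1:**
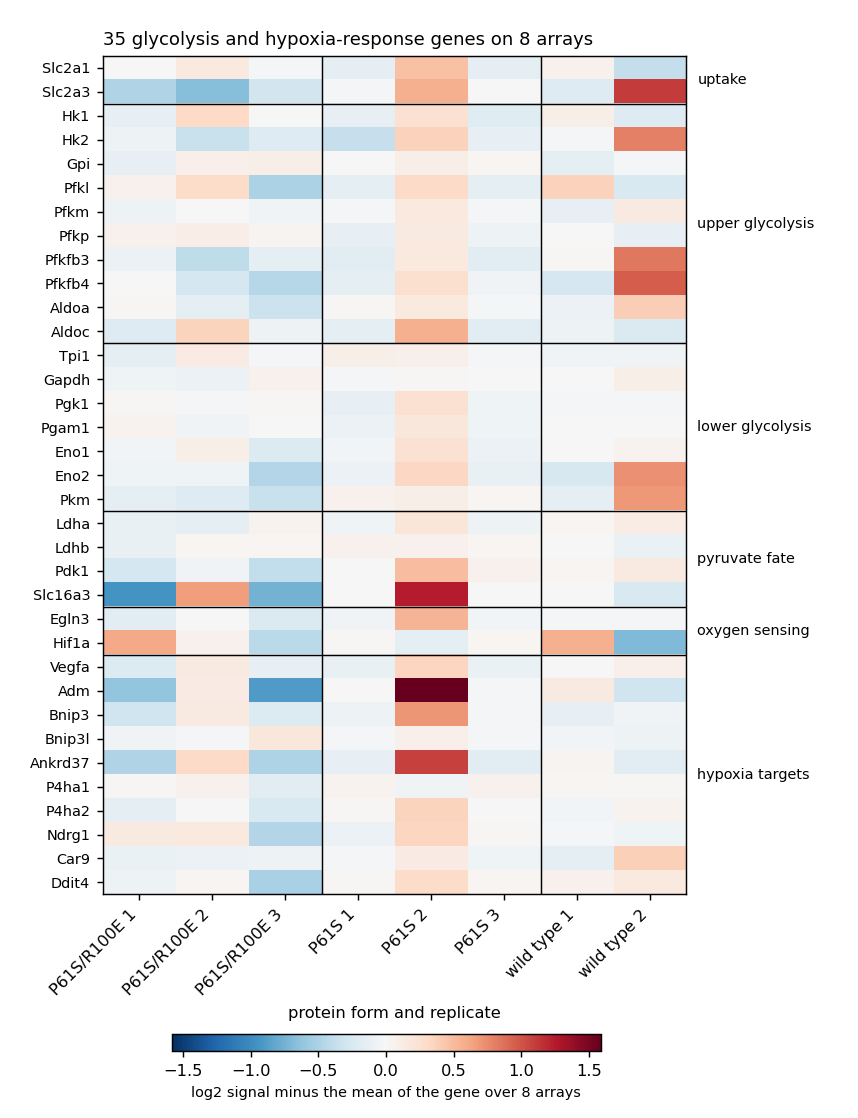
Heat map of the 35 measured members (rows, grouped by role) on the 8 arrays (columns, by protein form and replicate). Colour is the log2 signal minus the mean of the gene over the 8 arrays. The column of P61S replicate 2 is the reddest, with 20 of the 35 members at their highest there, and Slc2a3, Hk2, Pfkfb3, Pfkfb4, Eno2 and Pkm stand out on wild type replicate 2.

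Glucose enters cells through Slc2a1 (GLUT1), the carrier of many cell types, and Slc2a3 (GLUT3), the high-affinity carrier of neurons. Slc2a1 had levels of 1.29, 1.46 and 1.28 on the P61S/R100E arrays 1 to 3, of 1.15, 1.76 and 1.15 on the P61S arrays, and of 1.37 and 0.91 on the wild type arrays. P61S replicate 2 was the highest and wild type replicate 2 the lowest of the 8, and all groups overlapped. The difference of P61S/R100E from P61S was -0.12 (SE 0.23). Slc2a3 had levels of -5.13, -5.34 and -4.94 on P61S/R100E arrays, of -4.68, -4.09 and -4.66 on P61S arrays, and of -4.86 and -3.54 on wild type arrays. All 3 P61S/R100E arrays were below all other arrays, and wild type replicate 2 was far above its partner. Slc2a3 was lower in P61S/R100E cultures by 0.76 against P61S (SE 0.40, unadjusted p = 0.107) and by 0.94 against wild type (SE 0.40, unadjusted p = 0.058). The adjusted p-values were 1.00 and 0.859. Slc2a3 was dim, and it rests on 1 probe with 2 spots.

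In upper glycolysis, from hexokinase to aldolase, 8 of 10 measured members were lower in P61S/R100E than in P61S cultures, by a median of -0.16. Hk2 encodes an inducible hexokinase, which traps glucose in the cell as glucose 6-phosphate. Its levels were -4.89, -5.16 and -5.02 on P61S/R100E arrays, -5.17, -4.44 and -4.94 on P61S arrays, and -4.85 and -4.02 on wild type arrays. P61S replicate 2 and wild type replicate 2 were the highest, and the other 6 arrays lay between -5.17 and -4.85. Pfkfb3 makes the fructose 2,6-bisphosphate that drives phosphofructokinase. Its levels were -5.07, -5.38 and -5.13 on P61S/R100E arrays, -5.16, -4.82 and -5.15 on P61S arrays, and -4.96 and -4.14 on wild type arrays. The same P61S and wild type arrays were again on top. Its relative Pfkfb4 had the same pair on top, with -4.09, -4.38 and -4.56 on P61S/R100E arrays, -4.26, -3.84 and -4.16 on P61S arrays, and -4.37 and -3.14 on wild type arrays. Against P61S, the differences of P61S/R100E were -0.27 (SE 0.29) for Hk2, -0.20 (SE 0.26) for Pfkfb3 and -0.32 (SE 0.37) for Pfkfb4, each smaller than its SE. The Pfkfb3 probe used has 1 spot, and a dimmer second Pfkfb3 probe gave -0.067.

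The phosphofructokinase subunit gene Pfkp, which encodes the platelet form of the committing enzyme, was among the steadier members. It had levels of 3.79, 3.82 and 3.77 on P61S/R100E arrays, of 3.59, 3.86 and 3.64 on P61S arrays, and of 3.71 and 3.59 on wild type arrays. The P61S/R100E arrays lay above both wild type arrays and within the P61S range. Aldoc, the aldolase of glia in brain, had levels of 3.08, 3.63 and 3.21 on P61S/R100E arrays, of 3.12, 3.85 and 3.11 on P61S arrays, and of 3.20 and 3.05 on wild type arrays. Replicate 2 was the highest in both mutant groups, and all groups overlapped. A second Aldoc probe gave a difference of P61S/R100E from P61S of -0.31, against -0.18 for the brighter probe, which has 1 spot. The remaining 5 members of upper glycolysis (Hk1, Gpi, Pfkl, Pfkm and Aldoa) differed from P61S by -0.23 to 0.032 in P61S/R100E cultures.

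In lower glycolysis, from triose phosphate to pyruvate, all 7 members were slightly lower in P61S/R100E than in P61S cultures, by a median of -0.068. Gapdh, which oxidises glyceraldehyde 3-phosphate, had levels of 4.91, 4.90 and 5.06 on P61S/R100E arrays, of 4.97, 5.00 and 4.99 on P61S arrays, and of 4.97 and 5.08 on wild type arrays. Its whole spread over 8 arrays was smaller than the gap between P61S replicate 2 and its partners for most named members. This Gapdh probe has 1 spot, and its own gap there was 0.022. The 2 other Gapdh probes, with 2 spots each, gave gaps of 0.17 and 0.19. Pgk1, which makes the first ATP of the pathway, had levels of 4.93, 4.88 and 4.92 on P61S/R100E arrays, of 4.77, 5.15 and 4.83 on P61S arrays, and of 4.87 and 4.87 on wild type arrays. Pgk1 was highest on P61S replicate 2, and the P61S/R100E arrays were just above the wild type arrays. The differences of P61S/R100E from P61S were -0.035 (SE 0.11) for Gapdh and -0.068 (SE 0.13) for Pgk1.

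Eno2 and Pkm close the pathway. Eno2, the enolase of neurons, had levels of -0.94, -0.94 and -1.34 on P61S/R100E arrays, of -0.97, -0.54 and -0.99 on P61S arrays, and of -1.14 and -0.15 on wild type arrays. Pkm, the pyruvate kinase of most tissues, had levels of 2.16, 2.11 and 1.96 on P61S/R100E arrays, of 2.39, 2.41 and 2.34 on P61S arrays, and of 2.16 and 3.01 on wild type arrays. Wild type replicate 2 was the highest for both. For Pkm the P61S/R100E and P61S samples did not overlap, and the P61S arrays were close to each other. The Pkm difference from P61S was -0.31 (SE 0.25, unadjusted p = 0.257) on a probe with 1 spot, and the second Pkm probe gave -0.47. Eno2 differed by -0.31 (SE 0.32).

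Pyruvate meets lactate dehydrogenase, the mitochondrial gate and the lactate exporter, and all 4 members of this step were lower in P61S/R100E than in P61S cultures. Ldha, which encodes the lactate dehydrogenase subunit of glycolytic tissue, had levels of 5.83, 5.81 and 6.002 on P61S/R100E arrays, of 5.88, 6.14 and 5.87 on P61S arrays, and of 5.97 and 6.06 on wild type arrays. All groups overlapped, with a difference of -0.12 from P61S (SE 0.13). Pdk1, the kinase that shuts pyruvate dehydrogenase and so keeps pyruvate out of mitochondria, had levels of -3.83, -3.61 and -3.94 on P61S/R100E arrays. It had -3.56, -3.07 and -3.49 on P61S arrays and -3.52 and -3.42 on wild type arrays. Each P61S/R100E array was below each of the other 5.

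Pdk1 was lower in P61S/R100E than in P61S cultures by 0.50 on the log2 scale (1.41-fold, SE 0.18, 95% interval -0.93 to -0.069). Its unadjusted p of 0.029 was the only member p under 0.05 in this comparison, where 1.70% of all genes were lower and 1.01% higher at that p, and its adjusted p was 1.00. Against wild type the Pdk1 difference was -0.33 (SE 0.18, unadjusted p = 0.113). Quantile normalization gave -0.45 against P61S and -0.18 against wild type, and normexp background correction with quantile normalization gave -0.41 and -0.12. Pdk1 was dim, and it rests on 1 probe with 2 spots. Without P61S replicate 2 the difference from P61S was -0.27, and without P61S replicates 1 and 3 it was -0.73.

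Slc16a3 (MCT4) exports lactate from glycolytic cells and was among the 2 members that varied most. Its levels were -0.94, 0.66 and -0.75 on P61S/R100E arrays, 0.014, 1.24 and 0.011 on P61S arrays, and 0.014 and -0.24 on wild type arrays. Replicate 2 of both mutants stood above every other array, and the groups overlapped. The difference of P61S/R100E from P61S was -0.97 (SE 0.57, 95% interval -2.36 to 0.42), with an unadjusted p of 0.139. Its SD within groups (0.76) was larger than that of 98.1% of all genes.

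Oxygen sensing was represented by Hif1a and Egln3. Hif1a encodes the subunit that oxygen destabilises, a step that acts on the protein rather than the transcript. Its levels were -1.34, -1.88 and -2.37 on P61S/R100E arrays, -1.92, -2.11 and -1.92 on P61S arrays, and -1.38 and -2.65 on wild type arrays. The spread within P61S/R100E and within wild type was wider than any difference between groups, and the difference from P61S was 0.15 (SE 0.44). Hif1a was also among the 2 members not raised on P61S replicate 2. Egln3, a prolyl hydroxylase gene that HIF itself induces, had levels of -3.37, -3.19 and -3.42 on P61S/R100E arrays, of -3.25, -2.65 and -3.23 on P61S arrays, and of -3.22 and -3.21 on wild type arrays. P61S replicate 2 alone was set off, and the difference of P61S/R100E from P61S was -0.38 (SE 0.19, unadjusted p = 0.092).

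Among the other targets of HIF, 9 of 10 were lower in P61S/R100E than in P61S cultures, by a median of -0.26. Adm encodes adrenomedullin, a vessel-widening peptide. On 10 spots per array, its levels were -2.36, -1.61 and -2.64 on P61S/R100E arrays, -1.74, -0.15 and -1.75 on P61S arrays, and -1.60 and -2.05 on wild type arrays. P61S replicate 2 was 3.02-fold above the mean of its partners, while the 10 Adm spots on that array scattered by an SD of only 0.042. P61S/R100E replicate 2 was likewise 1.86-fold above the mean of its own partners. The difference of P61S/R100E from P61S was -1.25 (SE 0.52, 95% interval -2.53 to 0.022, unadjusted p = 0.053), the widest of all members.

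Ankrd37, an ankyrin repeat gene known as a HIF target, followed the pattern of Adm. Its levels were -2.43, -1.66 and -2.44 on P61S/R100E arrays, -2.08, -0.87 and -2.13 on P61S arrays, and -1.91 and -2.13 on wild type arrays. Replicate 2 was the highest array of both mutants. Bnip3, which marks mitochondria for removal, had levels of 1.98, 2.45 and 2.08 on P61S/R100E arrays, of 2.22, 3.00 and 2.27 on P61S arrays, and of 2.17 and 2.24 on wild type arrays. Again replicate 2 of both mutants stood above all other arrays, and P61S/R100E overlapped with both other groups. The differences of P61S/R100E from P61S were -0.69 for Ankrd37 (SE 0.41) and -0.45 for Bnip3 (SE 0.25), with unadjusted p-values of 0.147 and 0.123.

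**Figure D2:**
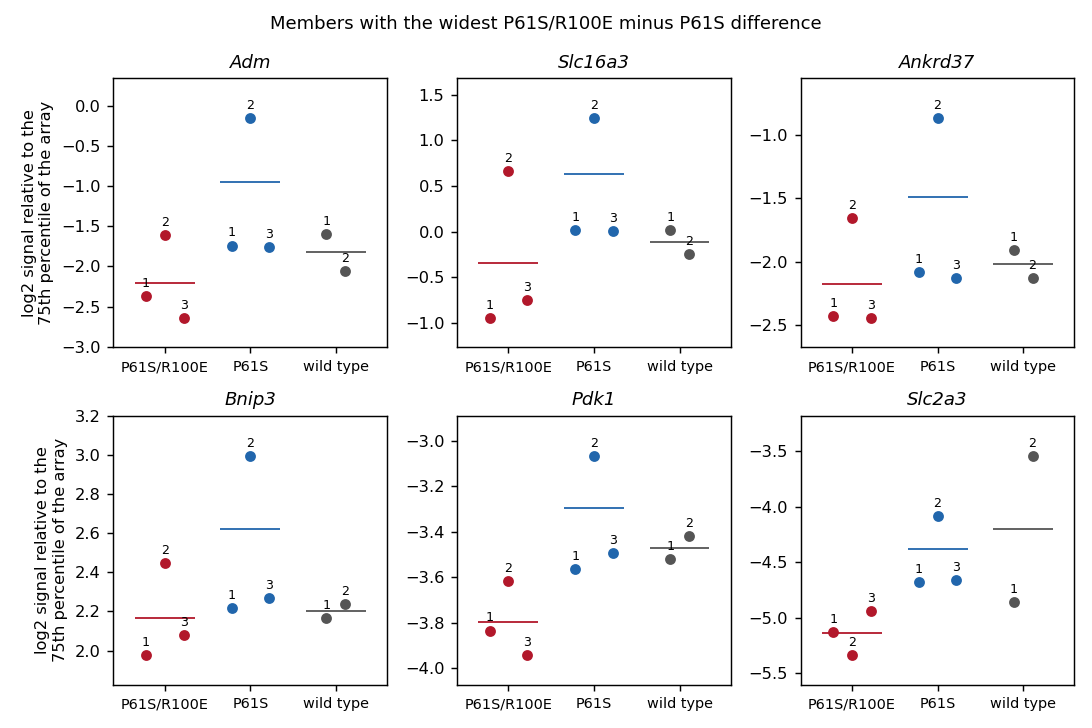
Levels (log2 signal relative to the 75th percentile of the array) of the 6 members with the widest difference between P61S/R100E and P61S, by protein form. Each point is an array, labelled with its replicate number, and bars are group means, with P61S replicates 1 and 3 counted as 1 sample. P61S replicate 2 is the highest array for Adm, Slc16a3, Ankrd37, Bnip3 and Pdk1, and wild type replicate 2 for Slc2a3.

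Vegfa, the vessel growth factor, had levels of 0.79, 1.14 and 0.87 on P61S/R100E arrays, of 0.88, 1.34 and 0.89 on P61S arrays, and of 0.99 and 1.08 on wild type arrays. Its brightest probe was raised on P61S replicate 2 by 0.46, but its 3 other probes gave -0.31, -0.12 and 0.74, so they disagreed on that array. All 4 Vegfa probes were lower in P61S/R100E than in P61S cultures. Ddit4 (REDD1), an inhibitor of mTORC1 induced by hypoxia and other stresses, had levels of 2.51, 2.62 and 2.07 on P61S/R100E arrays, of 2.61, 2.89 and 2.62 on P61S arrays, and of 2.66 and 2.75 on wild type arrays. All 3 P61S/R100E arrays were below both wild type arrays, with a difference of -0.30 (SE 0.19). Against P61S the Ddit4 difference was -0.35 (SE 0.19, unadjusted p = 0.118). The remaining targets (Bnip3l, P4ha1, P4ha2, Ndrg1 and Car9) differed from P61S by -0.31 to 0.016.

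The 8 members with more than 1 probe had 11 further probes. All 11 were lower in P61S/R100E than in P61S cultures, and 9 of 11 were higher on P61S replicate 2 than on the mean of its partners, the other 2 being probes of Vegfa. These probes share the RNA of the same arrays.

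Within the P61S group, replicate 2 was above the mean of replicates 1 and 3 for 33 of 35 members, all but P4ha1 and Hif1a, against 59.9% of all genes. The gap reached 1.5-fold for 8 members, against 6.95% of all genes. These were Slc2a1, Hk2, Aldoc, Slc16a3, Adm, Bnip3, Ankrd37 and Egln3, with the narrowest gap in Egln3 and the widest, 3.02-fold, in Adm. The median gap of members was 0.34 on the log2 scale. It was widest for uptake (0.60) and narrowest for lower glycolysis (0.27) and the oxygen-sensing pair (0.20). P61S replicate 2 held the highest level of the 8 arrays for 20 of 35 members, against 12.9% of all genes, and the lowest for 0, against 6.91% of all genes.

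Replicate 2 of P61S/R100E was above the mean of its partners for 25 of 35 members, against 44.8% of all genes. The gaps were 2.84-fold for Slc16a3, 1.86-fold for Adm and 1.71-fold for Ankrd37. P61S/R100E replicate 3 held the lowest level of the 8 arrays for 14 of 35 members, against 18.9% of all genes. Replicate 2 of wild type was above its partner for 21 of 35 members, close to the 60.9% of all genes. It was at least 1.5-fold above for Slc2a3, Hk2, Pfkfb3, Pfkfb4, Eno2 and Pkm, or 6 of 35, against 15.0% of all genes. Both mutants' replicate 2 arrays were in the second column of the slide, and both wild type arrays were alone in the fourth, so that column and wild type cannot be told apart.

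**Figure D3:**
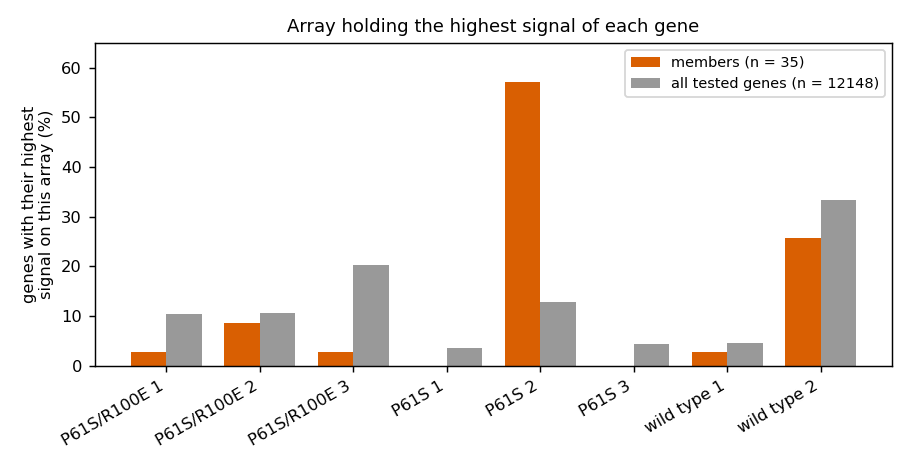
Share of genes (%) whose highest level over the 8 arrays lies on each array, for the 35 measured members and for all 12148 genes. P61S replicate 2 holds 20 of 35 members against 12.9% of all genes, while wild type replicate 2 holds 9 members against 33.3% of all genes.

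Without P61S replicate 2, the members' median difference between P61S/R100E and P61S was -0.038, with 22 of 35 below 0, against 47.9% of all genes. Without P61S replicates 1 and 3 it was -0.36, with 33 of 35 below 0, against 59.2% of all genes. Each of these omissions leaves P61S as 1 sample. By gene, leaving out replicate 2 brought Adm to -0.46, Slc16a3 to -0.35, Ankrd37 to -0.068 and Bnip3 to -0.075. Slc2a3, at -0.46, Pkm, at -0.29, and Pdk1, at -0.27, kept a larger part of their difference. The sign turned for 9 members (Slc2a1, Hk2, Pfkl, Aldoc, Pgk1, Pgam1, Eno1, Ldha and Vegfa), to values of 0.0087 to 0.19.

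Position on the slide gave a further split, since the first row held P61S replicates 1 and 2 and the second row only replicate 3. Of the P61S/R100E arrays, the first row held only replicate 1 and the second row replicates 2 and 3. Within the first row, the members' median difference of P61S/R100E from P61S was -0.17 with 30 of 35 below 0, against 53.3% of all genes. Within the second row it was -0.016 with 20 of 35 below 0, against 47.0% of all genes. In the second column, which held replicate 2 of both mutants, it was -0.26 with 31 of 35 below 0, against 62.0% of all genes. Adm was -1.42 in the first row, -0.37 in the second row and -1.45 in the second column. Slc2a3 was -0.75, -0.48 and -1.25, and Pdk1 was -0.52, -0.29 and -0.55. For both genes every P61S/R100E array was below every P61S array, so each split had to fall below 0. The 3 splits also share arrays. Slc16a3 was -1.57, -0.053 and -0.58.

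**Figure D4:**
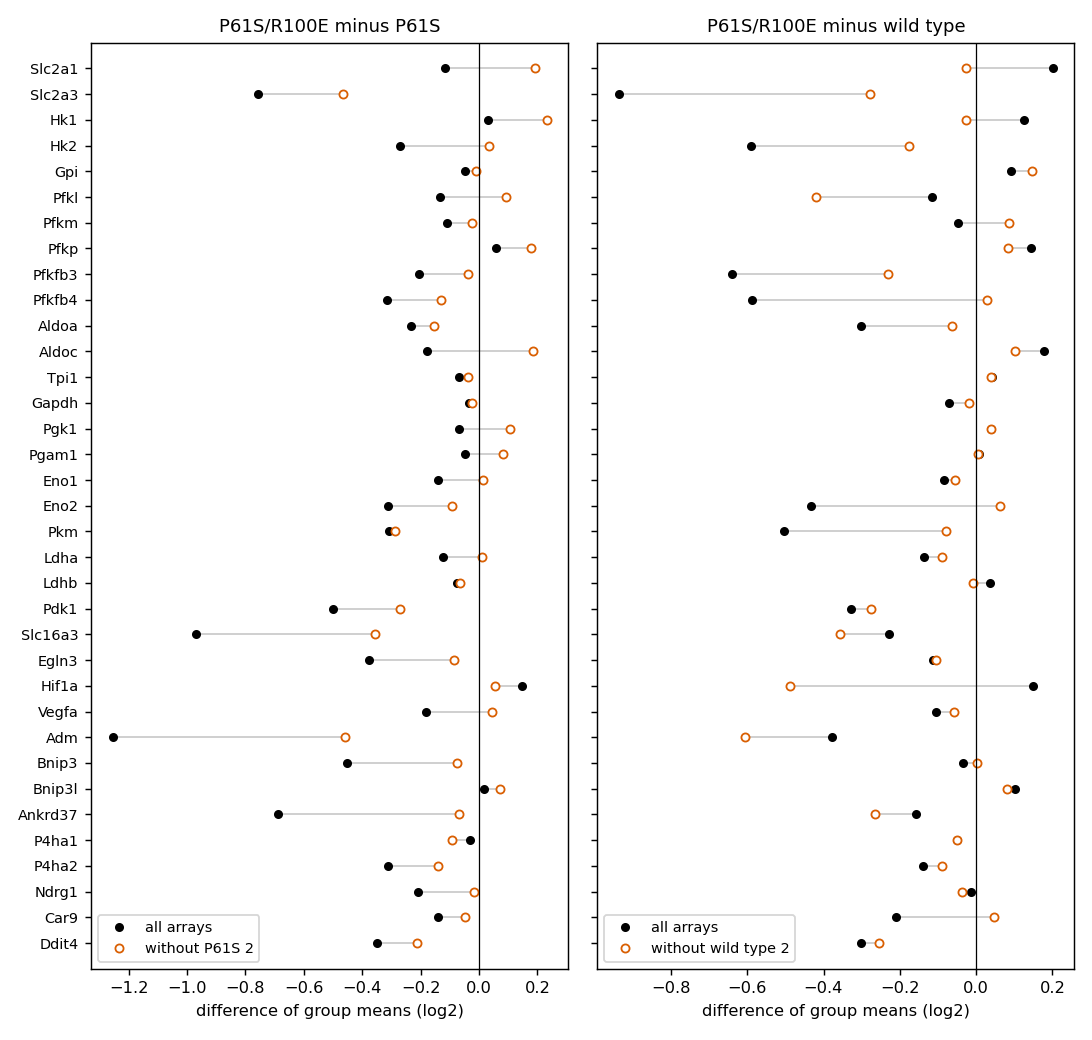
Difference of group means (log2) for each of the 35 measured members, P61S/R100E minus P61S (left) and P61S/R100E minus wild type (right). Filled points use all arrays and open points leave out P61S replicate 2 (left) or wild type replicate 2 (right). Adm, Slc16a3 and Ankrd37 move most toward 0 on the left. On the right, Slc2a3 and Pkm move toward 0, Pfkfb4 and Eno2 move to just above 0, and Hif1a and some other members also cross 0.

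Other features of P61S replicate 2 moved with these genes. The summed level of the 9 neuronal markers measured was 265 on that array, the highest of 8, against 221 to 254 on the others (in units of the array's 75th percentile). Calca, a neuropeptide gene, weighs in that sum, with a level of 6.22 there and of 5.71 to 5.95 elsewhere. Only 3 of the 9 were at their highest on P61S replicate 2, and their mean deviation from each gene's average was 0.14 there and 0.20 on wild type replicate 2. Tubb3 was lower there (3.97) than on all P61S/R100E arrays (4.24 to 4.30). The summed level of the 3 measured cell cycle markers was 4.81, the lowest, against 5.33 to 6.42. Sums for 9 Schwann and satellite glia markers (123 against 115 to 135), 8 fibroblast markers (162 against 147 to 188) and 8 macrophage markers (4.44 against 4.45 to 5.72) did not place the array far from the rest. Gene by gene, the glial mean deviation was 0.14 on P61S replicate 2, with 1 of 9 at its highest there. It was 0.22 on wild type replicate 2 and -0.11 to 0.018 on the other arrays. Fibroblast and macrophage mean deviations on P61S replicate 2 were -0.039 and -0.077. Over all genes it was 0.071 there. The 7 endothelial and mural markers summed to 1.62, against 1.56 to 1.97, a sum in which Pdgfrb weighs most. Gene by gene, their mean deviation was 0.28 on P61S replicate 2, the highest of the 8 arrays, against -0.18 to 0.069 on the others, with 3 of 7 at their highest there. Pecam1 was not above background on all arrays. The members themselves summed to 330 on this array, against 276 to 295. What part the neuronal, glial, endothelial and mural, and cell cycle markers had in the result was not tested.

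The second comparison asked how P61S/R100E differed from the wild type protein. No member and none of the 23585 probes (0%) passed an adjusted p of 0.05, and 833 probes (3.53%) had an unadjusted p under 0.05. Of 35 members, 24 were lower in P61S/R100E than in wild type cultures, against 57.1% of all genes, with a median of -0.10 against -0.029. The widest differences were in Slc2a3 (-0.94), Pfkfb3 (-0.64), Hk2 (-0.59), Pfkfb4 (-0.59), Pkm (-0.50, SE 0.25) and Eno2 (-0.43, SE 0.32). With normexp background correction and quantile normalization, the same differences were -0.58, -0.33, -0.28, -0.47, -0.55 and -0.28, so most sizes depended on the processing. The Pfkfb3 and Pkm probes used have 1 spot each, and their second probes gave -0.53 and -0.58. Of the other makers of fructose 2,6-bisphosphate, Pfkfb1 differed from wild type by -0.18 and Pfkfb2 by 0.20.

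Each of the 6 widest was highest on wild type replicate 2. Without it, where the wild type group is a single array, the differences were -0.28 for Slc2a3, -0.23 for Pfkfb3, -0.18 for Hk2, 0.028 for Pfkfb4, -0.078 for Pkm and 0.063 for Eno2. The members' median was then -0.049, with 23 of 35 below 0, against 46.5% of all genes. Samples did not overlap for 5 members with P61S/R100E lower (Slc2a3, Hk2, Pfkfb3, Pdk1 and Ddit4), against 8.73% of all genes, and for 2 with P61S/R100E higher (Pfkp and Pgk1), against 7.46%. The Pfkp and Pgk1 differences were 0.14 (SE 0.12) and 0.040 (SE 0.13). At an unadjusted p under 0.05 there were 0 members, where 2.14% of all genes were lower and 1.46% higher. Of the 10 hypoxia targets, 9 were lower in P61S/R100E than in wild type cultures, by a median of -0.12. Adm was at -0.38 (SE 0.52), Ddit4 at -0.30, Car9 at -0.21, Ankrd37 at -0.16 (SE 0.41), P4ha2 at -0.14, Vegfa at -0.10 (SE 0.18) and Bnip3 at -0.035 (SE 0.25).

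The third comparison set the P61S mutant against the wild type protein. It shares the P61S arrays with the first comparison and the wild type arrays with the second. No member and none of the 23585 probes (0%) passed the threshold, and 259 probes (1.10%) had an unadjusted p under 0.05. At that p were 0 members, where 0.412% of all genes were higher and 0.379% lower in P61S cultures. Of 35 members, 24 were higher in P61S cultures and 11 lower, where 55.6% of all genes were lower. The members' median was 0.079, against -0.017 over all genes. It was 0.032 with all 8 arrays as separate samples. The widest differences were Adm (0.88, SE 0.57), Slc16a3 (0.74, SE 0.62), Ankrd37 (0.53, SE 0.45), Pfkfb3 (-0.43, SE 0.29), Bnip3 (0.42, SE 0.28) and Aldoc (0.36, SE 0.29).

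Samples of P61S lay above both wild type arrays for Gpi, Tpi1, Ldhb, Bnip3 and Bnip3l, or 5 of 35, against 11.0% of all genes. The opposite held for 0, against 10.9%. Without P61S replicate 2, Adm was 0.079, Slc16a3 0.13, Ankrd37 -0.089, Bnip3 0.040 and Aldoc -0.0094, and the members' median was -0.058. Without wild type replicate 2, the median was 0.13.

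Members varied more within groups than genes at large. The median SD within groups was 0.22 for members and 0.16 for all genes. It was above that of 90% of genes for 6 members (Slc16a3, Adm, Hif1a, Ankrd37, Slc2a3 and Pfkfb4). It was lowest for Ldhb (0.071) and Gapdh (0.073, on a probe with 1 spot). P61S replicates 1 and 3 differed by at most 0.23 for any member, in Hk2.

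Other genes of the pathways were taken from lists that do not overlap the members. For 35 other genes of glucose, glycogen and pyruvate metabolism, the median difference of P61S/R100E from P61S was -0.014, with 19 lower and 16 higher, and 0 passed the adjusted threshold. P61S replicate 2 was above its partners for 26 of these 35, against 59.9% of all genes. It held the highest level for 10, against 12.9% of all genes. Pygl, a glycogen phosphorylase, was the widest of those lower in P61S/R100E, at -0.53. Gpd2, the mitochondrial glycerol phosphate dehydrogenase, was the widest in the other direction, at 0.32 (unadjusted p = 0.0356). Both were named after their values were seen.

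For 23 other HIF targets the median difference of P61S/R100E from P61S was -0.091, with 16 lower and 7 higher, and 0 passed the adjusted threshold. P61S replicate 2 was above its partners for 20 of these 23, against 59.9% of all genes. Cxcr4, a chemokine receptor, had levels of -3.91, -3.93 and -4.02 on P61S/R100E arrays, of -3.60, -3.45 and -3.55 on P61S arrays, and of -3.59 and -3.65 on wild type arrays, which did not overlap with the P61S/R100E arrays. Its difference was -0.44 from P61S and -0.33 from wild type (unadjusted p = 0.00524 and 0.0174, adjusted p = 1.00 and 0.859). Angptl4, which inhibits lipoprotein lipase, differed by -0.31 from P61S (unadjusted p = 0.0439, adjusted p = 1.00). Cxcr4 and Angptl4 were the 2 of 23 with an unadjusted p under 0.05 against P61S, where 1.70% of all genes were lower and 1.01% higher. Both genes were named after their values were seen. Of the 8 other regulators measured (Epas1, Hif3a, Arnt, Arnt2, Vhl, Hif1an, Egln2 and Cited2), 6 were lower and 2 higher in P61S/R100E than in P61S cultures, by a median of -0.10. Epas1, Arnt, Hif1an and Egln2, or 4 of 8, were at least 1.5-fold higher on wild type replicate 2 than on replicate 1, against 15.0% of all genes. Against wild type, the median was -0.20 for regulators, -0.073 for other targets and -0.012 for other glycolysis genes.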

How the data were processed

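The files hold 1 intensity per spot, from which the scanner software (Feature Extraction 10.7.3.1, protocol GE1_107_Sep09) had removed background and spatial trend, per the file headers. The array design, 028279, was built on rn4. Here, each intensity was turned into log2 and set relative to the array's 75th percentile. Spots of a probe were averaged without those marked as outliers, unless all were. The log2 table that the authors deposited, with 22018 probes, served as an alternative, and its medians of 9.82 to 10.33 show no scaling between arrays. Probes (23585 of 30367) were tested if all arrays of 1 group or more found them well above background. Symbols came from RefSeq accessions, and the brightest probe stood for a gene.

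A limma 3.58.1 fit in R 4.3.3 of 3 group means (4 residual and 2.101 prior degrees of freedom) was adjusted over all tested probes (Benjamini-Hochberg, 0.05), and the method was tested on simulated data. A fit of 8 arrays had been planned. After P61S replicates 1 and 3 were compared, their mean was used as 1 sample, and the 8-array fit became an alternative. The number of arrays limits the precision. Members and lists were chosen with earlier results of these data known. Named members were the 6 with the largest absolute change in each comparison and 14 fixed by role. Some items are not reported here. Tables were made with pandas 2.3.3 and numpy 2.4.6 in Python 3.11.15, and plots with matplotlib 3.10.9.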

Additional observations from a re-analysis of the deposited data

How the results depend on the processing

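In 23 other settings, 0 members were called in any of the 3 comparisons. Of the 483 values of 21 named members, the sign differed in 11 for P61S/R100E against P61S, 20 for P61S/R100E against wild type and 41 for P61S against wild type, and it was kept in all settings for 13, 10 and 3 members. In each triple of values here, the order is P61S/R100E against P61S, P61S/R100E against wild type, and P61S against wild type. Probes called were 0 in the chosen setting. With quantile normalization, and with centring on the median of detected probes, 1 was called against wild type for each mutant. Leaving out single arrays gave 0 to 34 calls for P61S/R100E against wild type and 0 to 16 for P61S against wild type, with the highest in both cases without wild type replicate 1, when the noisier array stood alone for its group. Without P61S replicates 1 and 3, a setting chosen after seeing the data, 10 probes were called for P61S/R100E against P61S and 9 for P61S against wild type. The members' median for P61S/R100E against P61S was then -0.36, with Pfkp at -0.064, and leaving out single arrays gave medians from -0.22 to -0.038, the value nearest 0 being without P61S replicate 2.

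With the slide column as a covariate, P61S against wild type turned for Slc2a3 (0.87), Hk2 (0.63), Pfkfb3 (0.32), Pfkfb4 (0.21), Gapdh (0.11), Ldha (0.43) and Slc16a3 (-0.090), and P61S/R100E against wild type turned for Ldha (0.098), as it did with normexp (0.011). Normexp used the median spot signal. Both wild type arrays filled the fourth column alone, so this covariate reaches beyond the columns shared by groups. Leaving out single arrays, P61S/R100E against P61S ranged from -0.17 to 0.19 for Slc2a1, -0.34 to 0.034 for Hk2, -0.34 to 0.19 for Aldoc, -0.082 to 0.11 for Pgk1, -0.18 to 0.0087 for Ldha and -0.29 to 0.045 for Vegfa. For P61S/R100E against wild type the ranges were from -0.026 to 0.43 for Slc2a1, -1.20 to 0.028 for Pfkfb4, -0.93 to 0.063 for Eno2 and -0.49 to 0.79 for Hif1a. For P61S against wild type they were from -0.0094 to 0.43 for Aldoc, -0.066 to 0.12 for Pgk1, -0.058 to 0.22 for Pdk1, -0.15 to 0.13 for Vegfa, -0.089 to 0.64 for Ankrd37, -0.028 to 0.27 for Egln3, -0.84 to 0.48 for Slc2a3, -0.73 to 0.096 for Hk2, -0.89 to 0.34 for Pfkfb4, -0.62 to 0.37 for Eno2, -0.62 to 0.23 for Pkm and -0.64 to 0.64 for Hif1a. The cause was not tested. Deviations of same-numbered P61S/R100E and P61S arrays had correlations of 0.051, -0.021 and 0.0081, and differently numbered ones had -0.043 to 0.033. Same-numbered arrays had correlations of 0.104 and 0.167 for P61S with wild type, and of -0.158 and -0.198 for P61S/R100E with wild type. With few arrays per group and near-duplicates within P61S, these values cannot decide whether replicate numbers paired the samples. The replicate block, on 8 arrays, gave 0 calls and members' medians of -0.11, -0.025 and 0.076.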
